A study of Arabidopsis thaliana with 12 samples.

Results

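Class A heat stress transcription factors (HSFs) are the activators that switch on heat shock genes in plants. A total of 10 members were followed, selected by gene identifier: HSFA1A, HSFA1B, HSFA1D, HSFA1E, HSFA2, HSFA3, HSFA6B, HSFA7A, HSFA7B and HSFA8. They were 10 of the 33610 genes counted. Of these, 9 were among the 20715 genes that reached 1 FPKM (fragments per kilobase of transcript, scaled to mapped reads) in at least 3 libraries and were tested. HSFA6B reached that limit in 0 libraries. HSFA2, HSFA7A and HSFA7B reached it in 6 libraries each, the 6 heated ones.

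RNA was sequenced from unopened Arabidopsis thaliana flower buds of stages 1 to 12, with the buds of 8 plants pooled in each replicate. Wild-type (WT) Col-0 plants and bzip17 mutant plants in the same background were compared at 22 °C and after 6 h at 38 °C. This gave 4 groups of 3 libraries, all from plants grown under 16 h of light and 8 h of dark. The mutant was a single T-DNA insertion line, so any second change carried by that line cannot be told apart from the loss of bZIP17. Transcript from the bZIP17 locus stood at 31.6 to 51.0 counts per M counts (CPM, M being 1e6) in the 6 WT libraries and at 3.49 to 10.3 CPM in the 6 bzip17 libraries, and the ranges did not overlap.

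In unstressed cells the HSFA1 factors, known as the master factors of the heat response, are made constitutively and held inactive by HSP90 and HSP70 chaperones. Heat occupies these chaperones with unfolded proteins, which frees the factors to bind heat shock elements, repeats of the unit GAA and its complement, as trimers. Among the genes they then activate are further class A factors, of which HSFA2 is known for sustaining and amplifying the response. bZIP17 belongs to a separate branch, that of membrane-anchored factors released by stress in the endoplasmic reticulum.

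Libraries held 38.6 to 71.8 M counts, of which 1.43 to 64.8% lay on 15 ribosomal RNA loci. In 4 libraries this share exceeded 10%. Replicate 3 of WT at 22 °C had the highest share, and the deposited FPKM of its other genes ran low. Libraries were compared on the CPM scale with TMM (trimmed mean of M-values) factors, and genes within a library on the FPKM scale. Floral organ identity markers were expressed in all groups, and 0 of 5 were called changed by heat with edgeR. Of 5 late pollen markers, 3 were called lower by heat in WT and 0 in bzip17, beside 6.43% and 6.44% of all tested genes. These 3 stood lower in unheated bzip17 than in unheated WT, with log2 differences of −1.78 to −1.15. At 38 °C their differences were 0.21 to 0.42. The other 2 markers differed by 0.07 and −0.59 at 22 °C. Between genotypes 0 of the 5 were called at either temperature or in the heat response. The part of these markers in the results on class A factors was not tested. In bulk buds, fewer cells of a type and less RNA per cell cannot be told apart.

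The region upstream of each member was read from the TAIR10.1 genome over the 300 bases before the RefSeq gene start. A 3-unit heat shock element (GAANNTTCNNGAA or TTCNNGAANNTTC, either strand) was present in HSFA2, HSFA7A and HSFA7B, 3 of the 10 members, and in 0.485% of 27443 promoters. None of the 4 HSFA1 windows held it. The 2-unit forms GAANNTTC and TTCNNGAA, which the 3-unit forms contain, occurred in 4 of 10 members and in 19.3% of all promoters. HSFA1E was the fourth member, with 1 such match. Shown here are the stretches of the 3 members with a 3-unit element and of HSFA1E for contrast, with every match to a 2-unit or 3-unit form in capitals, 5′ to 3′ and ending at the base before the RefSeq start. All lie on the plus strand: HSFA2 at chr2:11135466-11135623, HSFA7A at chr3:19264941-19265140, HSFA7B at chr3:23399036-23399235 and HSFA1E at chr3:673228-673427. The HSFA2 stretch was shortened to begin after the neighbouring gene.
HSFA2: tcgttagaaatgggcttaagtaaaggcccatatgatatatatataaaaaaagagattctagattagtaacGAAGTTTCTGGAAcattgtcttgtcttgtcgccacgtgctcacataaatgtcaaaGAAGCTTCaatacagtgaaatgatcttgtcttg
HSFA7A: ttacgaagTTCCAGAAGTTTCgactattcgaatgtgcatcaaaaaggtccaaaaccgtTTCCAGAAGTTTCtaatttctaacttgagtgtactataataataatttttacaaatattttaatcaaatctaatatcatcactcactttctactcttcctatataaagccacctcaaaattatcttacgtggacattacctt
HSFA7B: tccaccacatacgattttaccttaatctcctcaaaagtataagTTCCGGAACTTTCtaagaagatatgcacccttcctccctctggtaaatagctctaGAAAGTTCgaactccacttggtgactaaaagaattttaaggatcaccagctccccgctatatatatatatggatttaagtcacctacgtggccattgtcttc
HSFA1E: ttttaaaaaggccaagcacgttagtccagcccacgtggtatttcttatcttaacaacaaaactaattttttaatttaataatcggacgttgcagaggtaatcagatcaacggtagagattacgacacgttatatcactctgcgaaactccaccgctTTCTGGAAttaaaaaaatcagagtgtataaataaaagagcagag

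Counted from the base before the RefSeq start as −1, the 3-unit element of HSFA2 began at −88 and that of HSFA7B at −157. HSFA7A carried the same run of 13 letters, TTCCAGAAGTTTC, at −192 and again at −142. Other motifs did not separate these members from the rest. The core of the abscisic acid response element, ACGTG, was found in 6 of 10 members against 25.6% of promoters. The core of the dehydration response element (ACCGAC or GCCGAC) was found only in HSFA1A, against 8.24%. The endoplasmic reticulum stress elements ERSE and ERSE-II, bound by factors of the bZIP17 type, matched 0 members in this window, against 0.747 and 0.0656% of promoters. The authors reported the G box as well as ERSE-II enriched in bZIP17 binding peaks of heated seedlings, over longer upstream regions. Overlapping matches CACGT and ACGTG form a G box, CACGTG, beginning at −56 in HSFA2 and at −169 in HSFA1E. Its share over all promoters was not counted, and binding was not tested. HSFA3, HSFA6B and HSFA8 had no match to any of these motifs in this window.

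Did 6 h at 38 °C change the class A factors in buds? In WT, HSFA2, HSFA3, HSFA7A and HSFA7B rose and 0 members fell. These 4 of 9 tested members compare with 6.4% of all tested genes called higher and 6.43% called lower. In bzip17, HSFA2, HSFA7A and HSFA7B rose and 0 fell, 3 of 9 beside backgrounds of 6.08% and 6.44%. HSFA2, HSFA7A and HSFA7B entered the 9 only through the heated libraries, so a call lower was hardly open to them. HSFA6B did not enter. These shares, and the medians below, are therefore a description. A gene was called at a Benjamini-Hochberg adjusted p under 0.05 and a change over 2-fold in edgeR's quasi-likelihood test. DESeq2 gave the same 4 and 3 members and 0 lower, and 0 tested members were lower at an unadjusted p under 0.05. Without the 4 libraries in which ribosomal RNA exceeded 10%, which leaves 1 unheated WT library, the 4 members were not called in WT (edgeR adjusted p = 0.0802 to 0.138) and the 3 in bzip17 were. The median log2 change of the 9 members was 0.54 in WT and 1.05 in bzip17, against 0.02 and −0.05 over all tested genes.

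**Figure D1:**
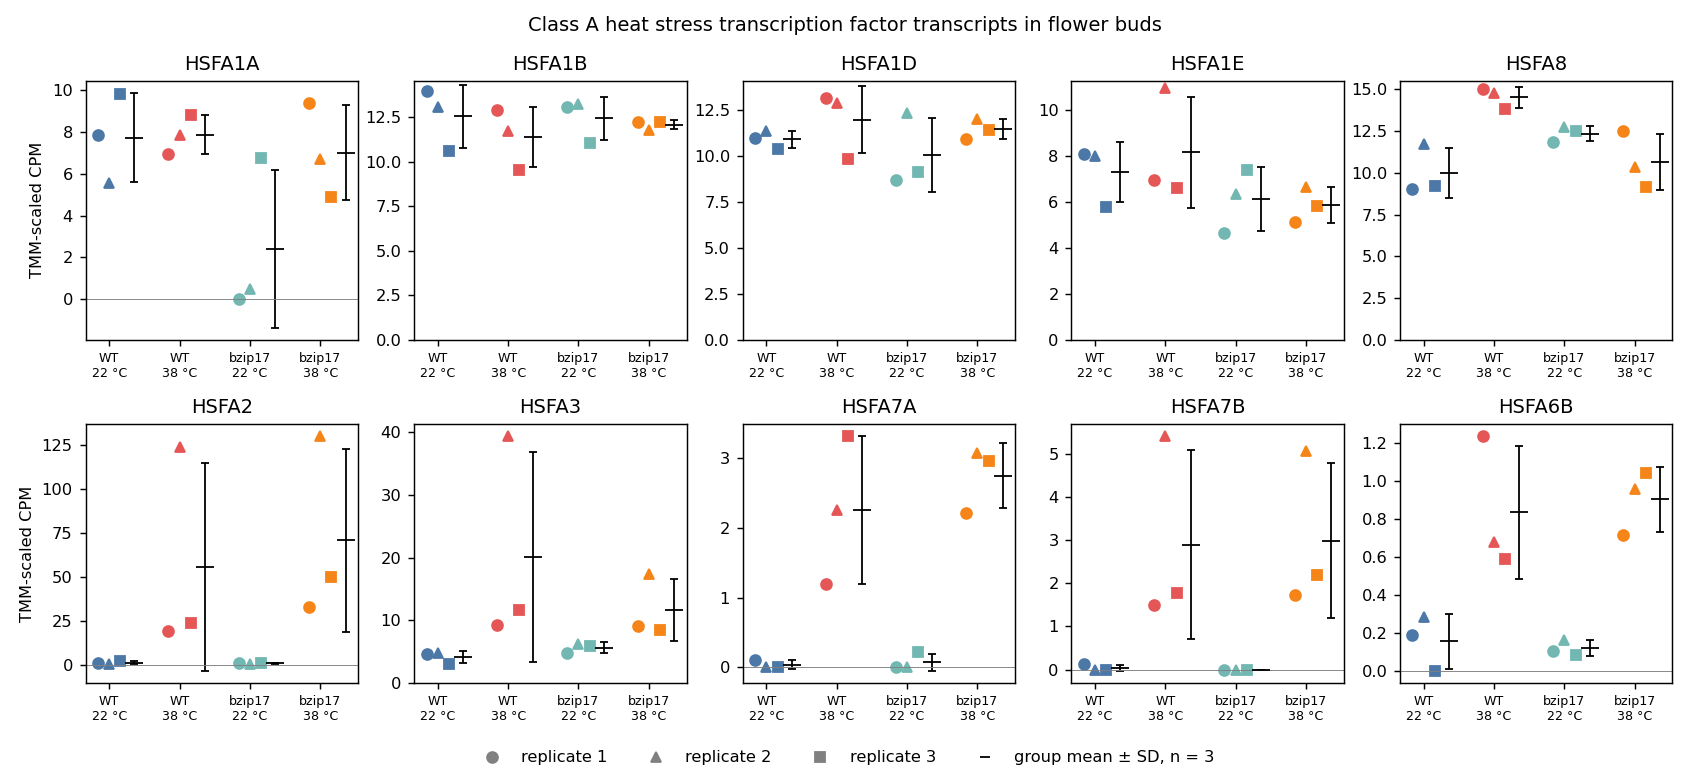
TMM-scaled CPM of each of the 10 members (vertical axis, 1 scale per panel) in the 4 groups, with symbols for replicates 1 to 3 and the group mean ± SD (n = 3) beside them. HSFA1B, HSFA1D and HSFA1E lie at similar levels at both temperatures, whereas HSFA2, HSFA3, HSFA6B, HSFA7A and HSFA7B are higher in the heated libraries of both genotypes.

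The HSFA1 factors came first in role and showed the smallest changes, HSFA1A excepted. HSFA1B (AT5G16820, TAIR10 chromosome 5, 5530273 to 5532889, plus strand) had 10.6 to 14.0 CPM in WT at 22 °C and 9.54 to 12.9 CPM at 38 °C. In bzip17 it had 11.0 to 13.2 CPM at 22 °C and 11.8 to 12.3 CPM at 38 °C. The ranges of the heated and unheated libraries overlapped in both genotypes. Its log2 change with heat was −0.14 (SE 0.17, adjusted p = 0.577) in WT and −0.04 (SE 0.17, adjusted p = 0.889) in bzip17. The HSFA1B model overlaps AT5G16830 by 44 bases, and reads there cannot be assigned without strand. No other member overlaps a neighbour.

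HSFA1D (AT1G32330, chromosome 1, 11656986 to 11660376, minus strand) acts with HSFA1A and HSFA1B in early heat signalling. It ranged from 9.85 to 13.1 CPM in heated WT buds and from 10.4 to 11.3 CPM in unheated ones. Its log2 change was 0.13 (SE 0.19, adjusted p = 0.634) in WT and 0.19 (SE 0.18, adjusted p = 0.492) in bzip17. HSFA1E (AT3G02990, chromosome 3, 673472 to 676403, plus strand) had 5.78, 8.01 and 8.08 CPM in unheated WT against 6.59, 6.94 and 10.9 CPM in heated WT. Its change was 0.16 (SE 0.27, adjusted p = 0.701) in WT and −0.07 (SE 0.27, adjusted p = 0.885) in bzip17. For HSFA1B, HSFA1D and HSFA1E, intervals of the heat response were taken as 1.96 SE on either side. In both genotypes they lay between −0.59 and 0.68, inside a 2-fold change.

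HSFA1A (AT4G17750, chromosome 4, 9869818 to 9871603, minus strand) did not share this evenness. Its counts were 498, 234 and 151 in WT at 22 °C and 331, 442 and 432 at 38 °C. In bzip17 they were 0, 23 and 467 at 22 °C and 776, 435 and 257 at 38 °C. The values of 0 and 23, in replicates 1 and 2 of the unheated mutant, stood apart from the other 10 libraries, which held at least 151 counts. Replicate 3 of that group, at 6.74 CPM, lay within the WT range of 5.53 to 9.80 CPM.

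A count of 0 in 1 library beside at least 100 in another of the same group was seen in 159 tested genes (0.768%). By group these were 48 in unheated bzip17, 89 in unheated WT, 40 in heated WT and 37 in heated bzip17. A gene can fall in more than 1 group. The log2 change of HSFA1A with heat was 0.03 (SE 1.02, adjusted p = 0.987) in WT and 1.51 (SE 1.04, adjusted p = 0.309) in bzip17. Without replicate 3 of bzip17 at 22 °C, the bzip17 value became 4.78 and was called (adjusted p = 0.0028). The origin of the low counts was not tested.

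HSFA2 (AT2G26150, chromosome 2, 11135682 to 11137396, plus strand) had the highest level of any member in heated buds. The WT libraries held 1.10, 0.54 and 2.01 CPM unheated and 19.0, 124.1 and 24.0 CPM heated. The bzip17 libraries held 1.00, 0.54 and 1.08 CPM unheated and 32.7, 130.1 and 49.7 CPM heated. Every heated library lay above every unheated one in both genotypes, and replicate 2 was the highest heated library of each. The log2 change was 5.64 (SE 0.88, adjusted p = 0.00108), 49.9-fold, in WT. In bzip17 it was 6.33 (SE 0.89, adjusted p = 4.5e-04), 80.7-fold. Leaving out replicate 2 of heated WT brought the WT value to 4.25. The same step in heated bzip17 brought the bzip17 value to 5.55, and both were still called.

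HSFA7A and HSFA7B are heat-induced factors known to be activated through HSFA1. HSFA7A (AT3G51910, chromosome 3, 19265294 to 19266619, plus strand) had 7, 0 and 0 counts in WT at 22 °C and 57, 127 and 163 at 38 °C. In bzip17 it had 0, 0 and 15 counts at 22 °C and 183, 199 and 156 at 38 °C. The groups did not overlap, and at 38 °C the CPM ran from 1.19 to 3.32 in WT and from 2.21 to 3.07 in bzip17. The log2 change was 5.42 (SE 1.22, adjusted p = 0.00778) in WT and 5.01 (SE 1.13, adjusted p = 0.00703) in bzip17. Both values rest on 1 unheated library with counts: leaving that library out moved them to 9.86 and 10.13, fitted values that depend on the prior count because the remaining unheated libraries held 0.

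HSFA7B (AT3G63350, chromosome 3, 23399468 to 23400812, plus strand) had 8, 0 and 0 counts in WT at 22 °C and 71, 304 and 87 at 38 °C. In bzip17 it had 0 counts in all 3 libraries at 22 °C and 142, 327 and 116 at 38 °C. Every heated library was again above every unheated one. The log2 change in WT was 5.60 (SE 1.07, adjusted p = 0.00485). Leaving out replicate 2 of heated WT brought it to 4.78. It was 10.22 without replicate 1 of WT at 22 °C, the 1 unheated WT library with counts, a fitted value that again depends on the prior count. In bzip17 HSFA7B was at least 48.2-fold higher at 38 °C (adjusted p = 0.00116), taking the unheated group at 3 counts per library. Without replicate 2 of bzip17 at 38 °C this bound was 31.6-fold.

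The 3 members with a 3-unit heat shock element upstream were thus those called in both genotypes. Among tested genes with a promoter window, 16 of 101 that held the 3-unit element were called higher in WT (15.8%), beside 5.19% of all 19633. In bzip17 the share was 14.9%, beside 4.69%. HSFA2, HSFA7A and HSFA7B are themselves among the called genes in both shares. For the 3725 tested genes with a 2-unit form the shares were 5.8 and 5.37%. These shares are a description, and the element itself was not tested.

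HSFA3 (AT5G03720, chromosome 5, 971786 to 973683, minus strand) is driven by the drought- and heat-induced activators DREB2A and DREB2C rather than directly by HSFA1. Unheated WT libraries held 4.59, 4.80 and 3.05 CPM, and heated ones 9.26, 39.5 and 11.6 CPM. Unheated bzip17 libraries held 4.68, 6.25 and 5.89 CPM, and heated ones 9.04, 17.35 and 8.39 CPM. The heated libraries lay above the unheated ones in both genotypes. The log2 change was 2.26 (SE 0.51, adjusted p = 0.00743), 4.81-fold, in WT. It was 1.05 (SE 0.49, adjusted p = 0.133) in bzip17, past the 2-fold limit but not called.

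The difference between these HSFA3 responses was −1.22 (SE 0.69, adjusted p = 0.9996), so the data did not separate the genotypes. Replicate 2 of WT at 38 °C weighed heavily on it. Without that library the WT response was 1.32, the bzip17 response was 1.05 and called (adjusted p = 0.0271), and the difference was −0.27. HSFA3 was the one called member with no heat shock element of either form in the window before its RefSeq start. That window, 974327 to 974626 on chromosome 5, did not adjoin the deposited gene model, which ends at 973683. The windows of the other members did not adjoin their models either: that of HSFA7B ended at 23399235 and its model began at 23399468. The bases between the RefSeq start and the deposited model were not searched for any member.

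**Figure D2:**
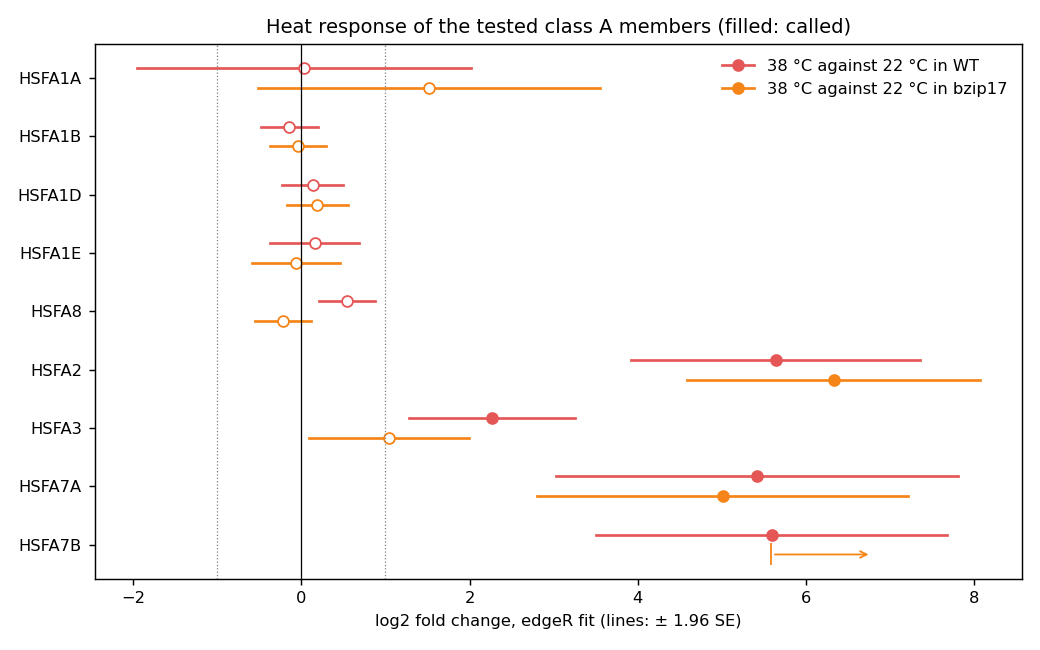
Log2 fold change at 38 °C against 22 °C (horizontal axis) for the 9 tested members in WT and bzip17, with lines of 1.96 SE on either side, filled points for called changes and dotted lines at a 2-fold change. HSFA2, HSFA7A and HSFA7B are called in both genotypes and HSFA3 in WT. The line of HSFA3 in bzip17 lies above 0 although its unadjusted edgeR p was 0.0523. The bar and arrow for HSFA7B in bzip17 mark a lower bound of 5.59.

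HSFA6B (AT3G22830, chromosome 3, 8078820 to 8081051, plus strand), a factor linked to abscisic acid signalling, was too low to be tested. It had 12, 12 and 0 counts in WT at 22 °C and 59, 38 and 29 at 38 °C. In bzip17 it had 4, 8 and 6 counts at 22 °C and 59, 62 and 55 at 38 °C. Its highest FPKM was 0.779. Each heated library exceeded each unheated one on the CPM scale. Without the expression limit its log2 change was 2.28 (adjusted p = 0.103) in WT and 2.90 (adjusted p = 0.0450) in bzip17.

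HSFA8 (AT1G67970, chromosome 1, 25484699 to 25486462, minus strand), a factor associated with redox sensing, was expressed at the level of the HSFA1 genes. The WT libraries held 9.02, 11.7 and 9.22 CPM unheated and 15.0, 14.8 and 13.8 CPM heated, and these groups did not overlap. The bzip17 libraries held 11.9, 12.7 and 12.5 CPM unheated and 12.5, 10.3 and 9.13 CPM heated, which overlapped. The log2 change in WT was 0.54 (SE 0.17, adjusted p = 0.0368), under the 2-fold limit and so not called. In bzip17 it was −0.21 (SE 0.17, adjusted p = 0.387).

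Counting all 10 members, 6 had the 3 heated WT libraries above the 3 unheated ones: HSFA2, HSFA3, HSFA6B, HSFA7A, HSFA7B and HSFA8. In bzip17 the same held for the first 5 of these. Over all tested genes the shares were 22.8% in WT and 22.1% in bzip17. HSFA2, HSFA7A and HSFA7B are among the tested genes only through their heated libraries, and HSFA6B is not among them.

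How did the makeup of the class A transcripts differ between groups? At 22 °C in WT the highest mean FPKM was that of HSFA8 at 5.81 (SD 2.85, n = 3), followed by HSFA1B at 5.54, HSFA1D at 4.80, HSFA1A at 3.62, HSFA1E at 3.37 and HSFA3 at 2.65. The FPKM ranges of each neighbouring pair in this order overlapped, with replicate 3 low for all of them. Within libraries HSFA1E was above HSFA3 in 3 of 3, and each of the other neighbours kept its order in 2 of 3. HSFA2 came next at 0.58 (SD 0.26, n = 3) and lay wholly below HSFA3. HSFA6B, HSFA7A and HSFA7B were each under 0.2 FPKM in every WT library.

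At 38 °C HSFA2 was first in both genotypes, at 42.5 FPKM (SD 46.0, n = 3) in WT and 54.8 FPKM (SD 40.1, n = 3) in bzip17. By its mean HSFA3 came second, at 15.9 FPKM (SD 13.7, n = 3) in WT and 9.34 FPKM (SD 3.995, n = 3) in bzip17. HSFA2 was above HSFA3 within 3 of 3 libraries of each genotype, although their ranges overlapped in WT. HSFA3 was above HSFA8, the next by mean, in 1 of 3 libraries of each genotype, and that library was replicate 2. HSFA7A and HSFA7B, though induced, stayed at 2.98 and 3.66 FPKM in WT and at 3.68 and 3.86 FPKM in bzip17, near the level of HSFA1E at 4.67 and 3.45 FPKM.

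The 4 HSFA1 genes held 67.2, 62.5 and 66.5% of the summed FPKM of the 10 members in WT at 22 °C. At 38 °C they held 38.4, 14.8 and 31.4%. In bzip17 the shares were 52.5, 55.0 and 56.8% at 22 °C and 32.1, 14.2 and 25.4% at 38 °C. The heated and unheated shares did not overlap in either genotype, and the lower share in unheated bzip17 buds included the 2 libraries with few HSFA1A counts. The summed HSFA1 level itself was 36.6 to 40.9 CPM in WT at 22 °C and 34.8 to 43.4 CPM at 38 °C. In bzip17 it was 26.3 to 34.3 CPM at 22 °C and 34.3 to 37.6 CPM at 38 °C.

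**Figure D3:**
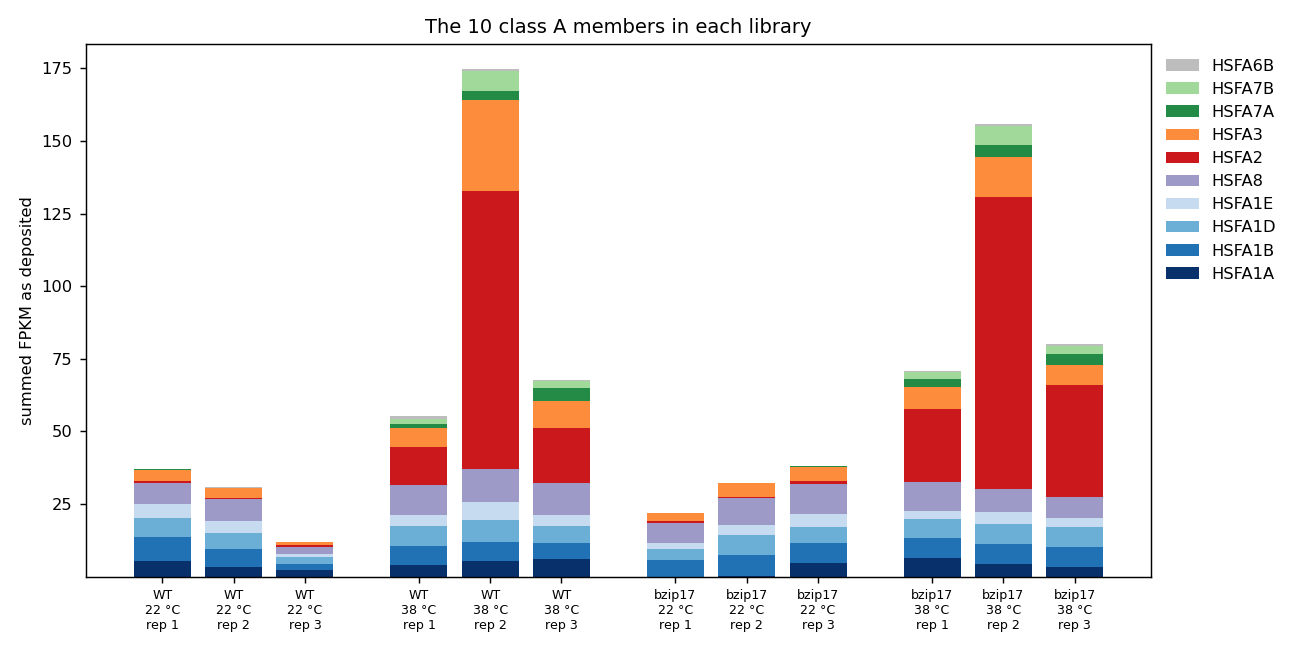
Deposited FPKM of the 10 members, stacked, in each of the 12 libraries. The blue HSFA1 part sums to 7.83 to 25.8 FPKM, and HSFA2 makes up 23.7 to 64.5% of the stack in the heated libraries. Replicate 3 of WT at 22 °C, with 64.8% of its counts on ribosomal RNA, has the shortest stack.

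Did the loss of bZIP17 alter the class A factors? At 22 °C edgeR called 0 members higher and 0 lower in bzip17, beside 0.0% and 0.00965% of all tested genes. At 38 °C it also called 0 and 0, beside 0.00483% and 0.00965%. The heat response differed between genotypes for 0 members in either direction, beside 0.0% higher and 0.0% lower. DESeq2 called 0 members in each of these comparisons. At an unadjusted edgeR p under 0.05 there was 1 of 9 tested members in each comparison. Of all 20715 tested genes there were 2029 at 22 °C, 917 at 38 °C and 895 in the difference of responses. The member was HSFA7B at 22 °C, where both groups were under the counting floor, HSFA8 at 38 °C, and HSFA8 in the difference of responses.

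HSFA8 is described further because it was picked by its unadjusted edgeR p at 38 °C and in the difference of responses. At 22 °C all 3 bzip17 libraries lay above all 3 WT libraries, as for 5.53% of tested genes, with a log2 difference of 0.31 (SE 0.17, adjusted p = 0.581). The margin was narrow, with the lowest bzip17 library at 11.86 CPM and the highest WT library at 11.7 CPM. At 38 °C all 3 bzip17 libraries lay below all 3 WT libraries, as for 6.99% of tested genes, with a difference of −0.45 (SE 0.17, adjusted p = 1.0). The log2 change with heat was 0.54 in WT and −0.21 in bzip17, opposite in sign. Their difference of −0.75 (SE 0.24, unadjusted p = 0.00884) did not survive adjustment over the 20715 genes (adjusted p = 0.9996). Leaving out each library in turn kept this difference between −0.89 and −0.66.

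For HSFA2 at 38 °C the genotype difference was 0.35 (SE 0.68), with an interval from −0.99 to 1.69 that includes a 2-fold change in the upward direction. For HSFA7A and HSFA7B at 38 °C it was 0.28 (SE 0.90) and 0.05 (SE 0.79). For HSFA1E it was −0.48 (SE 0.27), with an interval from −1.01 to 0.05. The intervals of HSFA1B and HSFA1D at 38 °C ran from −0.25 to 0.42 and from −0.42 to 0.30, within a 2-fold change. At 22 °C the interval of HSFA1A ran from −3.70 to 0.40 around −1.65, a value that became −4.92 (adjusted p = 0.339) once replicate 3 of the unheated mutant was left out. That of HSFA2 ran from −2.01 to 1.32 around −0.35.

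**Figure D4:**
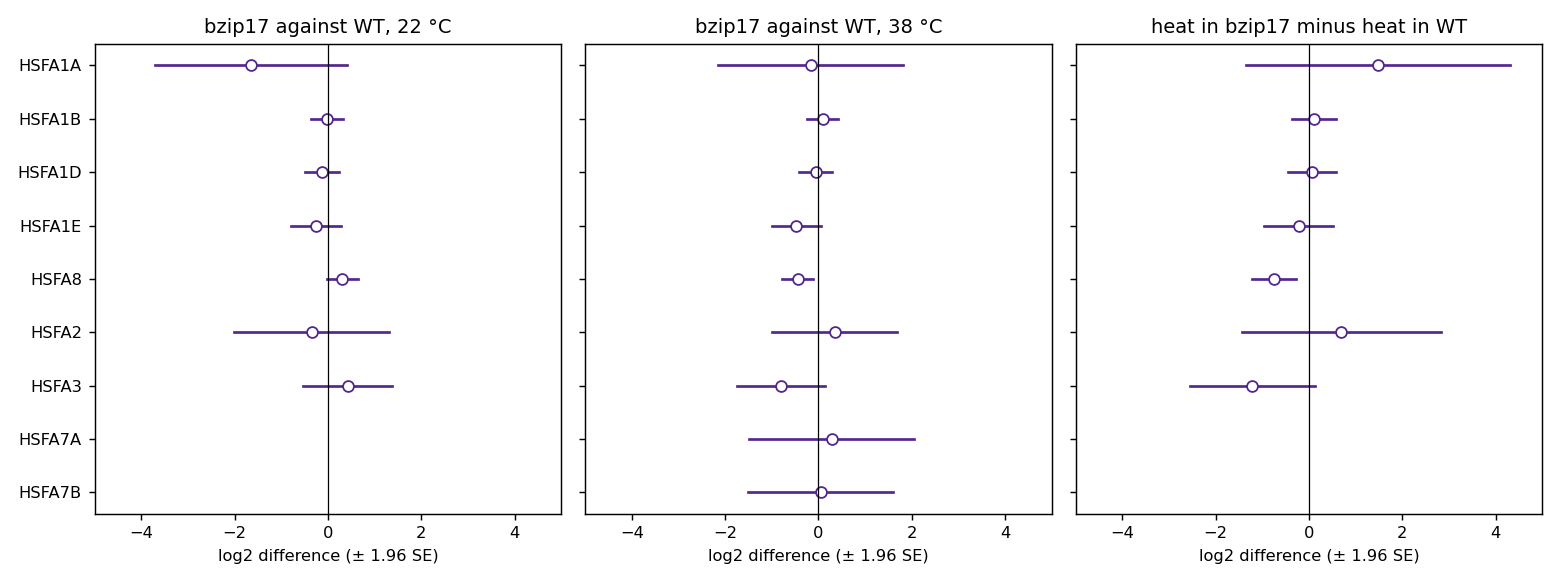
Log2 difference of bzip17 against WT at 22 °C and at 38 °C, and of the heat response in bzip17 minus that in WT (horizontal axes), with lines of 1.96 SE on either side. All points are open because 0 members were called. HSFA7A and HSFA7B are drawn only at 38 °C, since at 22 °C they held 0 counts in 4 and 5 of the 6 libraries.

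Replicates within the heated groups differed widely for the induced members. Replicate 2 held 5.78 times the mean HSFA2 CPM of replicates 1 and 3 in WT and 3.16 times in bzip17. For HSFA3 the ratios were 3.79 and 1.99, and for HSFA7B 3.32 and 2.58. HSFA7A showed ratios of 1.00 and 1.19. Among 10 heat shock genes known as targets of HSFA1 and HSFA2, replicate 2 was the highest heated library in both genotypes for all 10. For genes called higher in both genotypes this held for 35.8% of 915, and for all tested genes 17.5%. It held for 4 of the 10 class A members, HSFA2, HSFA3, HSFA7B and also HSFA1E, which was not called by heat. HSFA1E had 10.94 CPM in replicate 2 of heated WT beside 6.936 and 6.59. Replicate 2 was also the lowest heated library in both genotypes for each of the floral organ identity markers. SEP3 had 74.2 CPM there in WT beside 166.8 and 201.5, and 160.3 CPM in bzip17 beside 191.7 and 226.6. For AP1 in heated bzip17 the gap was small, at 34.07 CPM beside 34.65 and 34.62. In unheated bzip17 replicate 2 was also the lowest for each marker, with SEP3 at 62.08 CPM beside 190.4 and 187.4. This did not hold in unheated WT, where SEP3 had 83.05 CPM in replicate 2 beside 130.4 and 57.4. The share of all tested genes lowest in replicate 2 was not counted. What the libraries numbered 2 share was not tested.

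**Figure D5:**
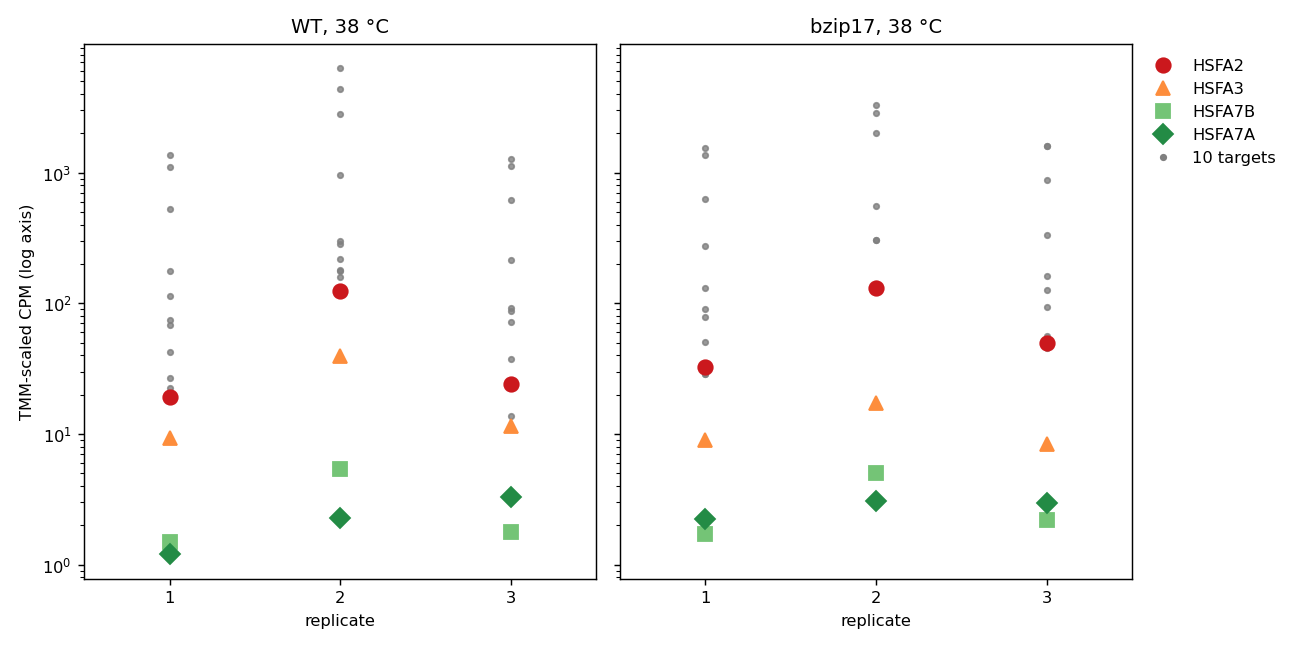
TMM-scaled CPM (log axis) of HSFA2, HSFA3, HSFA7A, HSFA7B and 10 target genes in replicates 1, 2 and 3 of the 38 °C groups. Replicate 2 is the highest for HSFA2, HSFA3, HSFA7B and each of the 10 targets in both genotypes, while HSFA7A peaks in replicate 3 in WT.

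The genes upstream, beside and downstream of the class A factors were described from lists. Over all tested genes, 6.4% were called higher and 6.43% lower in WT, and 6.08% and 6.44% in bzip17. The median log2 changes over all tested genes were 0.02 and −0.05. The 10 targets, mostly small heat shock proteins, all rose in both genotypes, with a median log2 change of 8.18 in WT and 8.53 in bzip17. HSP22.0, a small heat shock protein of the endoplasmic reticulum, rose by 10.82 (SE 0.94) in WT and 10.15 (SE 0.91) in bzip17. HSA32, a protein needed for long-lasting acquired thermotolerance, rose by 4.90 (SE 0.41) and 4.29 (SE 0.39). For HSP17.6II, which encodes a small heat shock protein of class II, the rises were 9.13 (SE 0.91) and 10.37 (SE 0.96).

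Of 12 chaperones and binding proteins that hold or modulate class A factors, 5 rose in WT and 6 in bzip17 and 0 fell by the call, with medians of 0.31 and 0.81. HSP90.1, the heat-inducible cytosolic HSP90, rose by 5.83 (SE 0.62) in WT and 6.24 (SE 0.63) in bzip17. ROF2, an immunophilin known to dampen HSFA2 activity, rose by 6.02 (SE 0.50) and 6.21 (SE 0.50). HSP70-4 rose by 7.10 (SE 0.60) and 7.60 (SE 0.61). HSBP, a small protein that binds HSF trimers and attenuates them, had −0.44 (SE 0.15, adjusted p = 0.0461) and −0.31 (SE 0.15, adjusted p = 0.144), neither called.

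Of 9 inputs to HSFA3 and HSFA6B, 4 rose in WT and 5 in bzip17, with medians of 1.12 and 1.28. DREB2C rose by 2.14 (SE 0.25) in WT and 1.28 (SE 0.25) in bzip17. DREB2A had 1.17 (SE 0.42, adjusted p = 0.0565) in WT, not called, and rose by 2.21 (SE 0.42, adjusted p = 0.00292) in bzip17. MBF1C, a coactivator of the heat response, rose by 3.74 (SE 0.52) and 4.39 (SE 0.53), and its model overlaps that of a neighbouring gene. ABF3, an activator of abscisic acid signalling, rose by 2.44 (SE 0.33) and 1.80 (SE 0.32). The differences between genotypes were not called for any gene of these lists.

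Of 11 other HSFs, 8 were tested, and 1 rose in WT and 3 in bzip17, with medians of 0.33 and 0.50. The shares over all tested genes were 6.4% and 6.08%, so the 1 in WT is close to the background. HSFB1, a class B factor that represses heat shock genes during attenuation, rose by 1.47 (SE 0.37, adjusted p = 0.0131) in WT and 1.67 (SE 0.37, adjusted p = 0.00633) in bzip17. Its relatives HSFB2A and HSFB2B rose in bzip17 by 1.59 (SE 0.36) and 1.27 (SE 0.24). In WT they had 0.29 (SE 0.36) and 0.48 (SE 0.24), not called. HSFA4A, HSFA4C and HSFA5, the other class A members tested, were not called in either genotype.

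The genes most like each induced member were found by the root-mean-square difference of log2 CPM, each gene centred on its own mean, over the 12 libraries. All genes were measured in the same libraries, which differ in depth and ribosomal RNA content, and the values are a description. For HSFA2 the closest were HSP90.1 at 0.46, ROF2 at 0.59 and AT2G20560 at 0.64. For HSFA3 they were AT1G10050 at 0.40, AT3G62455.1 at 0.42 and AT3G61810 at 0.43. HSFA7A had no gene closer than AT4G28815 at 0.85, followed by AT1G32880 at 0.98 and AT2G20560 at 1.04. HSFA7B had AT3G43970 at 0.81 and the mitochondrial genes ATMG00750 at 0.85 and ATMG01230 at 0.88.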

How the data were processed

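The authors trimmed reads with cutadapt, mapped them to TAIR10 with HISAT2, and assembled and quantified transcripts with StringTie, gffcompare and ballgown (no versions stated). The deposited table holds a whole-number count per gene and library, without naming the counter. It also holds FPKM per gene and library as deposited by the authors, with most counts of 0 listed at 0.0001. All 24 value columns belong to the 12 libraries.

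The test covered genes reaching an FPKM of 1 in 3 or more libraries. After TMM scaling, edgeR 4.0.16 (R 4.3.3, limma 3.58.1) fitted a quasi-likelihood model of 4 group means to the 12 libraries, with Benjamini-Hochberg adjustment over all tested genes. A call needs an adjusted p under 0.05 and more than a 2-fold change (interaction, adjusted p alone). DESeq2 1.42.0 was an alternative, beside other scalings, filters, thresholds, replicate blocks and left-out libraries. Intervals and count floors (3 counts per library) cover counting error or the fit only. The labels do not say that a replicate number marks a shared batch. Deviations of same-number pairs correlated at 0.117, 0.147 and 0.184 for heat in bzip17, and at −0.244 to 0.199 in the other comparisons. A pairing for heat in bzip17 would rest on these data alone, and the main fit used none. With a replicate block within bzip17, HSFA2 rose by 6.07 (edgeR adjusted p = 0.00274). HSFA3 then had 0.96 (edgeR adjusted p = 0.0524), not called.

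The members and lists were chosen with earlier results of these data known. Named genes are all 10 members, up to 4 called genes with the smallest adjusted p of each list, plus DREB2A, HSP90.1, HSBP and HSFB1, the 3 nearest genes of each induced member, and bZIP17. HSFB2A, HSFB2B, HSFA4A, HSFA4C and HSFA5 were named after their values were seen, as were the comparison of replicates within the heated groups and the order of members within libraries. Promoters were read from the RefSeq genome TAIR10.1 at RefSeq gene starts, since no promoter table was used. RefSeq names matched 28920 of 33610 genes. Gene positions are those of the deposited table on TAIR10. Protein identity was not analysed here. Software also included Python 3.11.15, pandas 2.3.3, numpy 2.4.6 and matplotlib 3.10.9.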

Additional observations from a re-analysis of the deposited data

How the results depend on the processing

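The log2 changes of HSFA2, HSFA3, HSFA7A and HSFA7B with heat kept their direction in both genotypes under every alternative, and the replicate block, over all libraries (HSFA2 in WT 5.15) or within a genotype (5.03), changed no call on a member. Without the 4 libraries rich in ribosomal RNA, which leaves 1 WT library at 22 °C, the members called in WT fell from 4 to 0 (HSFA2 6.07, HSFA3 2.48, HSFA7A 4.64, HSFA7B 4.82, adjusted p 0.0802 to 0.138), and those in bzip17 stayed at 3. With an unadjusted p at 22 °C, 1 member (HSFA7B) was lower in bzip17. On the CPM scale the HSFA1 share was 71.2% in WT and 61.8% in bzip17 at 22 °C. Signs turned only for differences that were never called. With library totals in place of TMM, HSFA1B had 0.18 (heat in WT), 0.10 (heat in bzip17), 0.23 (genotype at 22 °C) and −0.0765 (interaction), HSFA1D 0.18 (genotype at 22 °C) and −0.19 (interaction), HSFA1E 0.0349 (heat in bzip17) and 0.0165 (genotype at 22 °C), and HSFA2 0.0689 (genotype at 22 °C). Without the libraries rich in ribosomal RNA, HSFA1B had 0.0154 for heat in bzip17, and the genotype difference at 38 °C was 0.0131 for HSFA1D, −0.0554 for HSFA2, −0.0166 for HSFA7A and −0.26 for HSFA7B. Leaving out 1 library at a time, the ranges that crossed 0 were −0.16 to 0.22 (HSFA1A) and −0.11 to 0.29 (HSFA1E) for heat in WT, and −0.12 to 0.0059 (HSFA1B) and −0.23 to 0.0911 (HSFA1E) for heat in bzip17. For the genotype at 22 °C they were −0.10 to 0.0697 (HSFA1B) and −0.73 to 0.0855 (HSFA2). For the genotype at 38 °C they were −0.44 to 0.0344 (HSFA1A), −0.026 to 0.19 (HSFA1B), −0.19 to 0.0164 (HSFA1D), −0.44 to 1.72 (HSFA2), −1.21 to 0.15 (HSFA3), −0.0144 to 0.67 (HSFA7A) and −0.56 to 0.87 (HSFA7B). For the interaction they were −0.0102 to 0.22 (HSFA1B), −0.0658 to 0.23 (HSFA1D), −0.39 to 0.0468 (HSFA1E) and −0.0704 to 2.08 (HSFA2). Over all genes, counts moved by more than 1.5 times for heat in WT, from 1333 to 305 lower with library totals and from 1325 and 1333 to 339 and 168 without the libraries rich in ribosomal RNA, and for heat in bzip17, from 1335 to 448 lower with library totals. Without a fold limit they were 2839 higher and 2672 lower in WT and 2700 and 2871 in bzip17. Between the genotypes and in the interaction 0 to 2 genes were called in each direction, and the other scalings, fits and left-out libraries gave 0 to 13. DESeq2 called 18 higher and 49 lower at 22 °C, 5 and 32 at 38 °C, and 3 and 3 in the interaction, and an unadjusted p with the fold limit gave 307 and 451, 55 and 184, and 252 and 142. The cause of these shifts was not tested. Depth limits HSFA6B, HSFA7A and HSFA7B, which held 0 to 15 counts in the unheated libraries.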
